A study of Mus musculus with 63 samples.

Results

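Fos, the founding member of the AP-1 family of transcription factors, is an immediate-early gene, and its mRNA is scarce in a quiet neuron and made within minutes of calcium entry or growth factor signalling. The cells compared here were light-sensitive (LS) neurons of the mouse primary visual cortex (V1) that carried glutamatergic markers, and they were ordered by the Fos level of each cell. The question was what else differed between the cells with the most and the least Fos. Of the 63 cells in the deposited table, 44 LS cells (LS_3 to LS_46) entered the selection. In 36 of them Slc17a7 and Neurod2 together had more FPKM (fragments per unit of transcript length and sequencing depth) than Gad1 and Gad2 together. Of these 36, 5 cells were left out because Gfap, S100b and Aqp4 were all above 0, 0 cells because Olig1, Olig2 and Mbp were all above 0, and 1 cell because Slc17a7, Neurod2, Gad1 and Gad2 were all above 0. The 30 cells kept were ranked by Fos FPKM, so the members of each group were chosen by a measured value. The 10 highest are called high-Fos cells, the 10 lowest low-Fos cells, and the 10 between them middle cells.

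The deposited table holds 46 LS and 17 non-light-sensitive (NS) cells. The study set LS against NS cells after a quality filter. Its limits on cDNA, gene number and mitochondrial share were not applied here. Its filters on co-expressed markers are those used in the selection above. All cells came from wild type C57BL/6 mice aged 70 days. Each soma of layer 2/3 was imaged with a calcium indicator in a lightly anesthetized mouse that was shown moving gratings, was called LS when it responded to most presentations, and was then sucked into a pipette for Smart-seq2, which amplifies the mRNA of 1 cell. The high-Fos and the low-Fos cells thus shared genotype, age, region, stimulus and functional class, and were divided here by the measured Fos level. The labels name no mouse and no date for a cell, so cells are not replicates here. Each group counts as 1 sample, and no test was made between the groups.

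Because Fos chose the groups, its values are a description. High-Fos cells had 329.8 to 1998 FPKM of Fos with a median of 829, middle cells 54.1 to 315 with a median of 141, and low-Fos cells 0 to 43.3 with a median of 1.82. Of the low-Fos cells, 4 had no Fos read, and the median low-Fos cell had 2.5 reads against 2560 in the median high-Fos cell. The last cell inside the high group, LS_22, had 329.8 FPKM and the first outside it, LS_3, had 315. The lower border lay between LS_34, at 54.1, and LS_21, at 43.3.

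Depth overlapped between the groups. The reads that fell on genes of the table numbered 499364 to 2511204 in high-Fos cells, median 872030, and in low-Fos cells 366990 to 1643351, median 829508. The number of genes above 1 FPKM was 3786, 6906 and 9980 (lowest, median, highest) in high-Fos cells and 4384, 5407 and 6752 in low-Fos cells. Mitochondrially encoded genes held 3.76% to 14.5% of the summed FPKM of high-Fos cells, with a median of 8.64%, and 4.02% to 15.5% of that of low-Fos cells, with a median of 5.16%. No molecular identifiers were used, so reads are not independent molecules.

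The markers went partly against the label of glutamatergic neurons in the high-Fos group. Slc17a7, the vesicular glutamate transporter VGLUT1, was 0.575, 17.6 and 114 FPKM in high-Fos cells and 18.1, 99.8 and 172 in low-Fos cells. A set of 15 pan-neuronal markers averaged 0.54 on the log2(FPKM + 1) scale in LS_13, 1.99 in LS_41 and 1.99 in LS_4. The other 7 high-Fos cells had averages from 4.16 to 6.92, and the low-Fos cells from 5.57 to 7.11. Conversely, 8 of the 10 high-Fos cells carried 13 to 16 of 17 genes of fibroblasts and the leptomeninges at 1 FPKM or more, the exceptions being LS_18 with 7 and LS_30 with 4. The low-Fos cells carried 0 to 10 of them. The cells are therefore named here by their Fos rank, and the lists with at least 6 measured genes are also given in cells with few fibroblast genes.

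Differences are given as the mean of log2(FPKM + 1) over the high-Fos cells minus that over the low-Fos cells, called the log2 difference, which understates the change of genes with low values. A gene is called past 4-fold when this difference reached 2 in either direction. It is called separated when, in addition, at least 80 of the 100 pairs of a high-Fos and a low-Fos cell had the higher value on that side. Genes counted as measured had 1 FPKM or more in at least 5 of the 20 cells, Fos left out. Of these 9780 genes, 708 (7.24%) were past 4-fold higher in high-Fos cells and 302 (3.09%) lower. Separated genes numbered 377 (3.85%) higher and 191 (1.95%) lower. The median log2 difference of all measured genes was 0.18. With each cell rescaled to the same total it was 0.10, the counts past 4-fold were 643 higher and 378 lower, and those of separated genes 342 and 237.

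Immediate-early transcription factors were higher along with Fos. Of the 25 on the list, which does not hold Fos, 23 had a positive log2 difference, 17 were past 4-fold higher, none was past 4-fold lower, and 12 were separated. Their median log2 difference was 2.35. Over all measured genes, 7.24% were past 4-fold higher and 3.85% separated and higher. The list was drawn up with the behaviour of these genes in the data already known.

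The Fos proteins and their AP-1 partners differed in degree. Fosb, the nearest relative of Fos, was 72.0, 115 and 348 FPKM (lowest, median, highest) in high-Fos cells and 0, 0.0883 and 68.2 in low-Fos cells. No low-Fos cell reached any high-Fos cell for Fosb, and the log2 difference was 5.67. Of the 9780 measured genes, 4 were past 4-fold higher and 2 past 4-fold lower without any overlap of the groups. Fosl1 and Fosl2, further relatives of Fos, had log2 differences of 1.63 and 1.58 and were under 4-fold. Atf3, a stress-induced bZIP factor that pairs with Jun proteins, was 3.07, 143 and 399 FPKM in high-Fos cells, whereas 9 of the 10 low-Fos cells were at 0 and only LS_31 held it, at 87.8, with a log2 difference of 5.90. Of the dimer partners, Jun had a log2 difference of 3.999, Junb 3.73 and Jund 2.13, which was 1.81 without LS_35 and also under 4-fold without LS_18, LS_41 or LS_23. Jun was 10.7, 66.9 and 376 FPKM in high-Fos cells and 0, 3.04 and 34.2 in low-Fos cells, so the groups overlapped.

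Ier2, a short immediate-early gene product of the nucleus, was 58.4, 139.6 and 613 FPKM in high-Fos cells. In low-Fos cells it was at 0 in 8, at 34.8 in LS_35 and at 375 in LS_21, with a log2 difference of 5.87. LS_21 had the most Fos among the low-Fos cells. Egr1, a zinc finger factor used as an activity reporter in cortex, was 247, 785 and 3075 FPKM in high-Fos cells and 0.148, 116 and 606 in low-Fos cells, a log2 difference of 3.08. Nr4a1, an orphan nuclear receptor, was 6.77, 659.7 and 4683 against 0, 175 and 502, a log2 difference of 3.34. Egr1 and Nr4a1 were thus present in most low-Fos cells as well, unlike Atf3 and Ier2. Klf6, Klf4 and Csrnp1 had log2 differences of 3.80, 3.48 and 2.93, and Egr2 was above 0 in 8 high-Fos cells, up to 69.2 FPKM, and listed at 0 in all low-Fos cells.

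**Figure D1:**
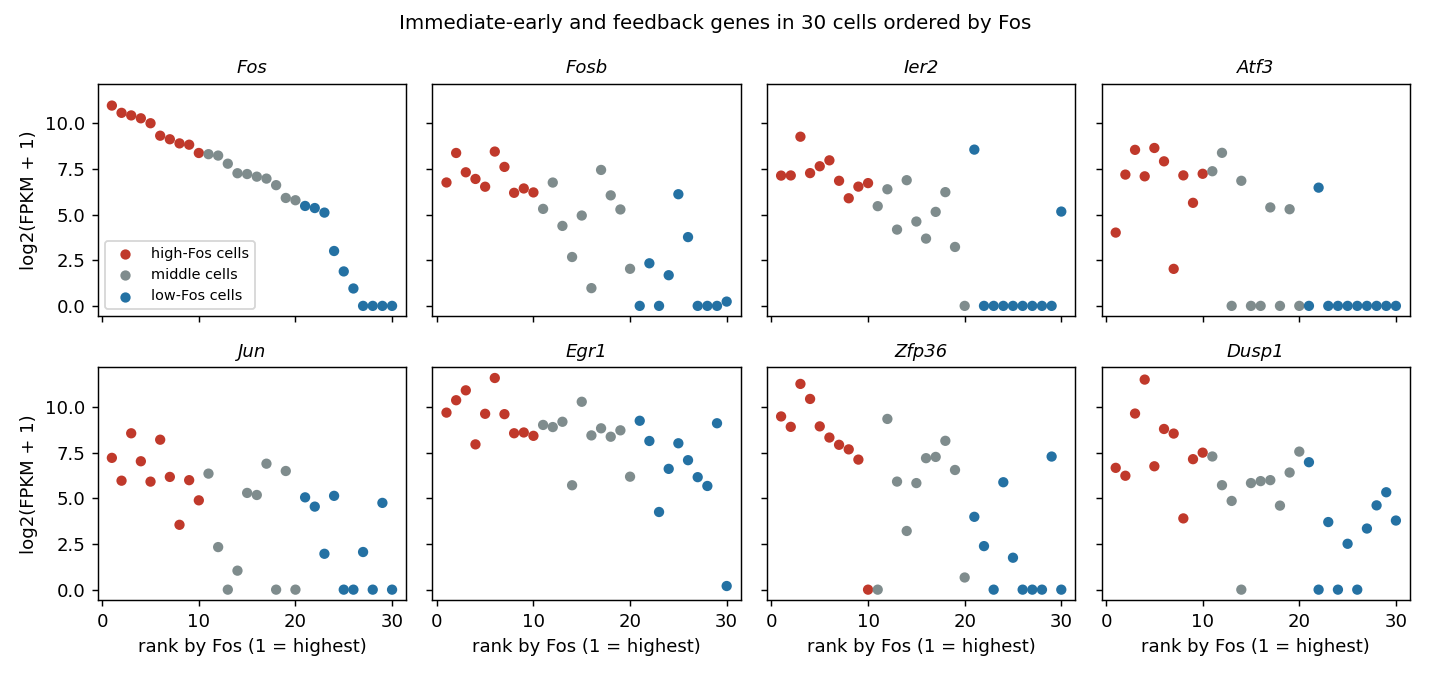
Each point is 1 cell, with its rank by Fos FPKM on the x axis (1 is the highest) and log2(FPKM + 1) on the y axis, for Fos and other early genes. The points of Fosb in the 10 high-Fos cells lie above all those of the low-Fos cells, and those of Atf3 lie at 0 in 9 of the 10 low-Fos cells.

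Not all early genes were higher. Npas4, a bHLH-PAS factor that is induced in neurons by calcium entry, was above 0 in 3 high-Fos cells, up to 241 FPKM, and in 2 low-Fos cells, up to 52.2, with a log2 difference of 0.16. Egr3 and Egr4, which are also neuronal activity genes, had log2 differences of -0.21 and -0.70, and Nr4a3 had 0.27. These 4 were within the spread of the cells. In the comparison of cells with few fibroblast genes Npas4 had 3.07, Egr3 -0.10, Egr4 1.43 and Nr4a3 -1.38.

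The promoters of 4 genes are shown as the 250 bases before the start of transcription, 5′ to 3′ in the direction of the gene, from RefSeq on GRCm38.p6. Capitals mark TGACGT, the core of the cAMP response element, or TGANTCA, the AP-1 site, on either strand. They show Fos itself, the 2 separated transcription factors with the largest log2 differences that had an entry in the sequence table, and Bag3, which had reads in all high-Fos cells and in none of the low-Fos cells.
Fos, chr12:85473640-85473889, plus strand: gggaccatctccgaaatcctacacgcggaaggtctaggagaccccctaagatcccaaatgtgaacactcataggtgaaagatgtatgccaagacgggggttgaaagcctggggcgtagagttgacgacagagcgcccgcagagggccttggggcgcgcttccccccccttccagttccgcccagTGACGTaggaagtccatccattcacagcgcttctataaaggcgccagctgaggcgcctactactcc
Fosb, chr7:19310046-19310295, minus strand: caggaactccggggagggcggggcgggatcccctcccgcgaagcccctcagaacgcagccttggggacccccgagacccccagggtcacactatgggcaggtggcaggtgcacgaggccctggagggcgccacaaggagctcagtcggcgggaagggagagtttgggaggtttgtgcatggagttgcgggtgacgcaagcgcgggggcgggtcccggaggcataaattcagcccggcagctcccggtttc
Atf3, chr1:191183334-191183583, minus strand: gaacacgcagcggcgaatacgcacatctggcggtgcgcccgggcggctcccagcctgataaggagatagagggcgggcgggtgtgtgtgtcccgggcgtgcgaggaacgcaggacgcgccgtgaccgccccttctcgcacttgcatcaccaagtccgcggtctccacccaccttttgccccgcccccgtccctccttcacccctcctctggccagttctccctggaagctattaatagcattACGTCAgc
Bag3, chr7:128523333-128523582, plus strand: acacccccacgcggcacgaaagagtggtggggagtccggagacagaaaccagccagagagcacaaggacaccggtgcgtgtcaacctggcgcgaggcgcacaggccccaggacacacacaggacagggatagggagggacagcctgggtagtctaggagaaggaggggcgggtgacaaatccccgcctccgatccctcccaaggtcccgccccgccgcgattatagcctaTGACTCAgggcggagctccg
The Fos promoter held TGACGT at positions -66 to -61 from the start, the Atf3 promoter held its reverse complement at -8 to -3, and the Bag3 promoter held TGANTCA at -20 to -14. The Fosb window held none of the motifs searched.

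Motifs were searched on both strands of these 250 bases in 32851 promoters of 27025 genes, and TGACGT was found in 6.47% of them. Of the 31 promoters of 21 genes that represent Fos and the immediate-early list in the table, 11 (35.5%) held TGACGT and 4 (12.9%) a CArG box, the site of serum response factor, which 1.47% of all promoters held. In the same 31 promoters TGANTCA was in 1 (3.23%) and GAANNTTC, part of the heat shock element, in 2 (6.45%), beside 6.75% and 6.69% of all promoters. The promoters of measured genes, given next, are the closer background for this list, since all its 25 genes besides Fos were measured. TGACGT was in 9.67% of 424 promoters of genes separated and higher in high-Fos cells and in 10.01% of the 9763 promoters of measured genes. TGANTCA was in 7.08% and 4.41%, GAANNTTC in 6.13% and 4.93%, and the CArG box in 2.83% and 1.23%. In the 214 promoters of genes separated and lower in high-Fos cells the shares were 6.07% for TGACGT, 3.27% for TGANTCA, 4.67% for GAANNTTC and 0% for the CArG box. The motifs can overlap each other only at their ends, a match is not a bound site, and several promoters may belong to 1 gene.

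Genes that end the early response were higher in part. Of 14 feedback inhibitors of MAP kinase and mRNA decay factors, 12 were measured, 7 were past 4-fold higher, none was past 4-fold lower and 5 were separated, with a median log2 difference of 2.14, beside the 7.24% of all measured genes past 4-fold higher and the 3.85% separated and higher. Zfp36 (tristetraprolin), which binds AU-rich elements and speeds the decay of early mRNAs, was 0, 401 and 2457 FPKM in high-Fos cells and 0, 1.18 and 155 in low-Fos cells, a log2 difference of 5.88. Its relative Zfp36l1 had a log2 difference of 4.68. Dusp1, the inducible phosphatase that inactivates MAP kinases, was 13.9, 160.2 and 2894 FPKM against 0, 10.6 and 125, a log2 difference of 4.64, and Nfkbia, the inhibitor of NF-kappaB, had 4.04. By contrast, Dusp6, a phosphatase specific for ERK, had -0.34 and Spred2, an inhibitor of the Ras pathway, had -1.09. In the comparison of cells with few fibroblast genes Dusp6 had 3.31 and Spred2 -1.42.

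Effector genes of neuronal activity were higher in part. Of 26 genes, 23 were measured, 6 were past 4-fold higher and 1 was past 4-fold lower, where 7.24% of all measured genes were past 4-fold higher and 3.09% lower. The median log2 difference of 0.20 was near that of all genes. The higher ones included Cdkn1a, an inhibitor of cyclin-dependent kinases, with 4.38, Gadd45b, a DNA damage-inducible signalling protein, with 4.25, and Trib1, a pseudokinase, with 3.16. Arc, the activity-regulated cytoskeletal protein of dendrites, was above 0 in 3 of 10 high-Fos cells (LS_28 with 159 FPKM, LS_18 with 69.5 and LS_30 with 41.9) and in 2 of 10 low-Fos cells, up to 70.3. Bdnf, a neurotrophin, had a log2 difference of 0.38, Nptx2, a pentraxin of excitatory synapses, 0.20, Gadd45g 0.04, and Homer1, a postsynaptic scaffold, -0.85. Nrn1 (neuritin) was lower, with a median of 7.07 FPKM in high-Fos cells against 87.4 in low-Fos cells and a log2 difference of -3.01. Of the 10 high-Fos cells, 7 thus had no Arc read.

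The 48 genes that carry calcium signals to Fos, from glutamate receptors to CREB and serum response factor, had mostly negative log2 differences. Of the 46 measured, 34 were lower in high-Fos cells, 4 were past 4-fold lower, 3 were separated and none was past 4-fold higher, with a median log2 difference of -0.82. Over all measured genes 3.09% were past 4-fold lower and 1.95% separated and lower. Those past 4-fold were Prkar1b, a regulatory subunit of protein kinase A, at -2.84, the transcription factor Mef2c at -2.47, Grin1, the common NMDA receptor subunit, at -2.27, and the kinase Camkk1 at -2.19. Grin1 was at -1.95 without LS_13, and Camkk1 at -1.91 without LS_13, LS_44, LS_18 or LS_41 and under 4-fold without LS_21 or LS_23. Camk2a, a calcium-activated kinase, had -1.43, whereas Creb1 and Srf, at low levels in both groups, had -0.16 and 0.31. Mef2c was 0.875, 18.3 and 68.9 FPKM in high-Fos cells and 51.3, 92.0 and 161 in low-Fos cells.

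**Figure D2:**
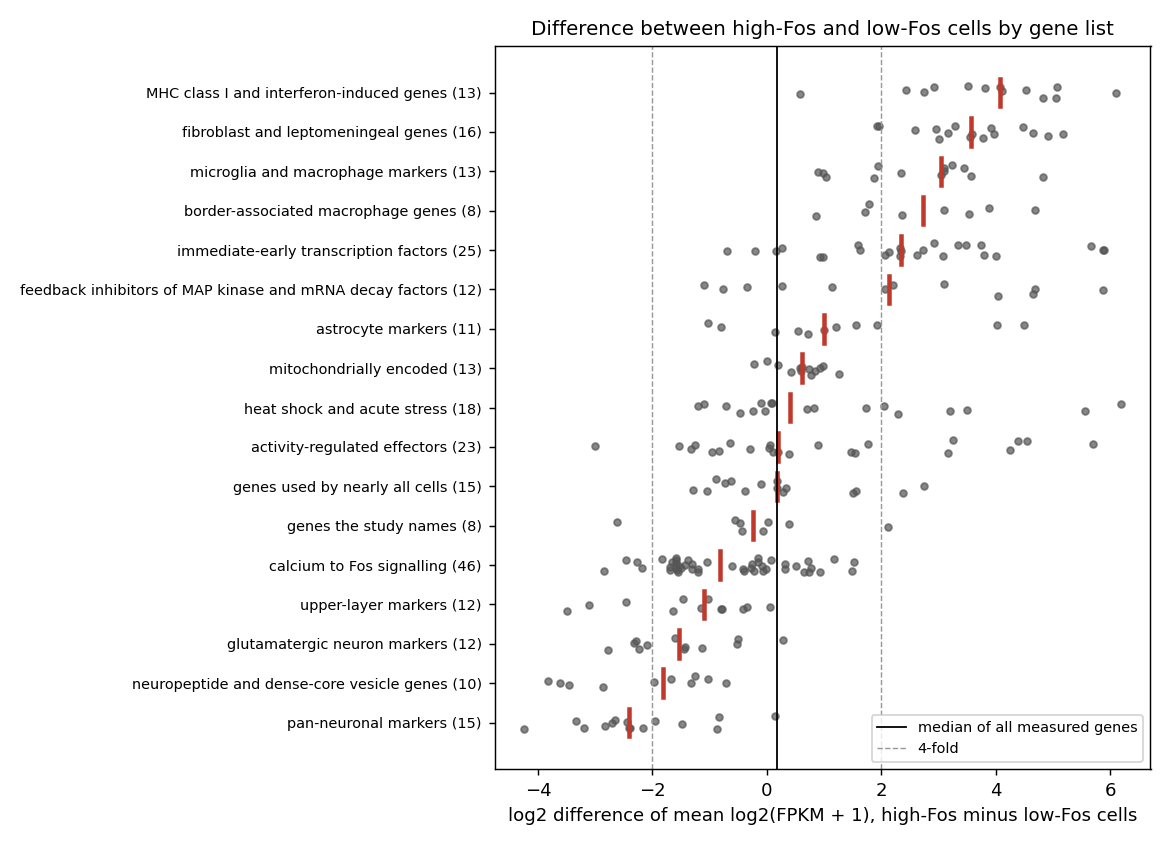
Each row is a gene list and each point 1 of its measured genes, with the log2 difference between high-Fos and low-Fos cells on the x axis, a red bar at the list median and dashed lines at 4-fold. The immediate-early transcription factors have their median at 2.35 and the pan-neuronal markers at -2.41, while the median of all genes is 0.18.

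Stress genes were higher in part. Of 18 measured heat shock and acute stress genes, 6 were past 4-fold higher, none was past 4-fold lower, and the median log2 difference was 0.40, beside the 7.24% of all measured genes past 4-fold higher and their median of 0.18. Hspb1, a small heat shock protein, was 16.4, 136 and 783 FPKM in high-Fos cells and 0, 0 and 51.7 in low-Fos cells, a log2 difference of 6.18. Hmox1 (heme oxygenase 1), induced by oxidative stress, had 5.55, Txnip, the thioredoxin-binding protein, 3.50, and Atf4, the effector of the integrated stress response, 3.21. Of the abundant chaperones, Hsp90aa1 had -1.10 and Hspa8 -0.11. Bag3, a co-chaperone of Hsp70 that is not on this list, was 1.45, 81.6 and 371 FPKM in high-Fos cells and was listed at 0 in all 10 low-Fos cells.

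Of the 9780 measured genes, 141 were at 0 in every low-Fos cell and 2 (Klhdc9 and Crls1, named after their values were seen) in every high-Fos cell. A gene at 0 in 1 group passed the filter through the other group alone. The high-Fos cells also had more genes above 1 FPKM, with a median of 6906 against 5407, so the 2 counts are a description only. Bag3 had reads in 10 high-Fos cells, and Gpx8, a peroxidase of the endoplasmic reticulum, Tiparp, an ADP-ribosyltransferase, the SNARE protein Snap23, the ion exchanger Slc24a3, the growth factor Bmp7 and the lymphotoxin receptor Ltbr in 9 each. The median FPKM of the high-Fos cells was 66.1 for Gpx8, 37.6 for Tiparp and 31.7 for Bmp7. A gene at 0 in a cell can still be expressed below the depth reached.

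Of the genes separated and higher, Serping1, the inhibitor of complement C1, came first with a log2 difference of 6.40, from 38.2, 344 and 1017 FPKM in high-Fos cells against 0, 0 and 70.9 in low-Fos cells. Hspb1 came next, then Ifitm2, an interferon-induced membrane protein, with 6.10, and S100a11, a calcium-binding protein of non-neuronal cells, with 6.03. They were followed by Atf3, Bag3, Zfp36 and Ier2, by Tnfrsf12a, the receptor of the cytokine TWEAK, with 5.85, and by Cyr61, a matrix-associated growth regulator, with 5.70. Tnfrsf12a did not overlap between the groups, with at least 2.12 FPKM in every high-Fos cell and at most 1.61 in any low-Fos cell. This held for 4 of the 9780 measured genes among those past 4-fold higher.

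Of the genes separated and lower, Ttc9b came first. It was 0, 11.7 and 196 FPKM in high-Fos cells and 45.5, 395 and 1242 in low-Fos cells, a log2 difference of -4.85. Lin7b, a scaffold of synaptic junctions, had -4.43 and did not overlap between the groups, since every low-Fos cell had at least 23.3 FPKM and every high-Fos cell less than that. Stmn3, a microtubule regulator of the stathmin family, was 0, 103 and 459 FPKM against 242, 826 and 1181, a log2 difference of -4.24. Kctd16, an auxiliary subunit of GABA-B receptors, had -4.14, Got1, an aspartate aminotransferase, -4.01, Chgb, a granin of dense-core vesicles, -3.82, and Gabrd, the delta subunit of GABA-A receptors, -3.81. Jph3, Dmtn, Tubb4a, Necab3 and Itpka, an inositol trisphosphate kinase, lay between -3.79 and -3.65. Rab3a, a GTPase of synaptic vesicles, had -3.46 and also did not overlap, with at most 258 FPKM in high-Fos cells and at least 276 in low-Fos cells. Of the 9780 measured genes, 2 past 4-fold lower did not overlap between the groups.

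Neuronal markers as lists were lower in high-Fos cells, beside the 3.09% of all measured genes past 4-fold lower and the 1.95% separated and lower. Of the 15 pan-neuronal markers, 10 were past 4-fold lower, 8 were separated and none was past 4-fold higher, with a median log2 difference of -2.41. Snap25, a SNARE protein of the presynapse, was 0, 152 and 386 FPKM in high-Fos cells and 182, 400.2 and 593 in low-Fos cells, a log2 difference of -2.39. Uchl1 had -3.34 and Tubb3 -3.19. Of the 12 measured glutamatergic markers, 5 were past 4-fold lower and none higher, with a median of -1.53. Nrgn (neurogranin) had -2.78 and Slc17a7 -2.32, while Neurod2, which the selection also used, had 0.28. Snap25 was at -1.71 without LS_13 and Slc17a7 at -1.95 without LS_41. Of the 12 measured upper-layer markers, 3 were past 4-fold lower, among them Calb1 at -3.49 and Lamp5 at -3.10, with a median of -1.09. Of 10 measured neuropeptide and dense-core vesicle genes, a list added after the values were seen, 4 were past 4-fold lower, with Scg5 at -3.61 and Cck at -3.45, and the median was -1.82. Only 5 of the 18 GABAergic and 5 of the 14 layer 4 to 6 markers were measured, and of these Cck was past 4-fold lower and 1 layer 4 to 6 marker was past 4-fold higher.

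Markers of other cell types were higher in the same cells. Of 17 genes of fibroblasts and the leptomeninges, added after the values were seen, 16 were measured, 14 were past 4-fold higher and 9 separated, with a median log2 difference of 3.57. Over all measured genes 7.24% were past 4-fold higher and 3.85% separated and higher. Dcn (decorin) was 1.64, 83.6 and 963 FPKM in high-Fos cells and 0, 0 and 257 in low-Fos cells, and Islr had a log2 difference of 5.18. The summed FPKM of the list was 353, 10992 and 26517 in high-Fos cells and 0.359, 2228 and 9960.3 in low-Fos cells. Such a sum can rest on few genes, since LS_21, with 9960.3, had 5 of the 17 at 1 FPKM or more. Of 13 MHC class I and interferon-induced genes, also added later, 12 were past 4-fold higher and 11 separated, with a median of 4.07. H2-D1, a classical MHC class I chain, was 19.9, 229 and 380.3 FPKM against 0, 1.32 and 87.4, and Ifitm3 had a log2 difference of 5.05.

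Of the 13 measured microglia and macrophage markers, 8 were past 4-fold higher, with a median of 3.05, beside 7.24% of all measured genes, and Lyz2 (lysozyme) had a log2 difference of 4.83. Their summed FPKM was 79.7 to 6443 in high-Fos cells and 23.1 to 2724 in low-Fos cells, and C1qa (complement C1q) was 0, 310.3 and 1137 against 0, 7.27 and 478. Of 8 measured genes of border-associated macrophages, chosen after the values were seen, 5 were past 4-fold higher, with a median of 2.73. Of 11 measured astrocyte markers, only Gja1 (connexin 43), with 4.01, and Glul (glutamine synthetase), with 4.49, were past 4-fold, whereas Gfap had 0.71 and Aqp4 was above 0 in only 2 high-Fos cells. The selection had removed cells with Gfap, S100b and Aqp4 all above 0, so the levels of these markers are partly set by it. The summed FPKM of the astrocyte list was 211 to 1987 in high-Fos cells and 64.9 to 868 in low-Fos cells. Of 5 measured oligodendrocyte markers, 3 were past 4-fold higher, including Apod and Ptgds, which leptomeningeal cells also express, while Olig1 and Mog were at 0 in every high-Fos and low-Fos cell. Of the endothelial and mural list 3 of 12 genes were measured and 1 was past 4-fold higher, of the blood list 4 of 5 and 1, and of the oligodendrocyte precursor list 1 of 4 and none. Hbb-bs, a globin chain, reached 25416 FPKM in LS_45 and its median in high-Fos cells was 4.46, with a log2 difference of 2.49 that was 1.29 without LS_45. The part of these markers in the differences of the other genes was not tested.

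**Figure D3:**
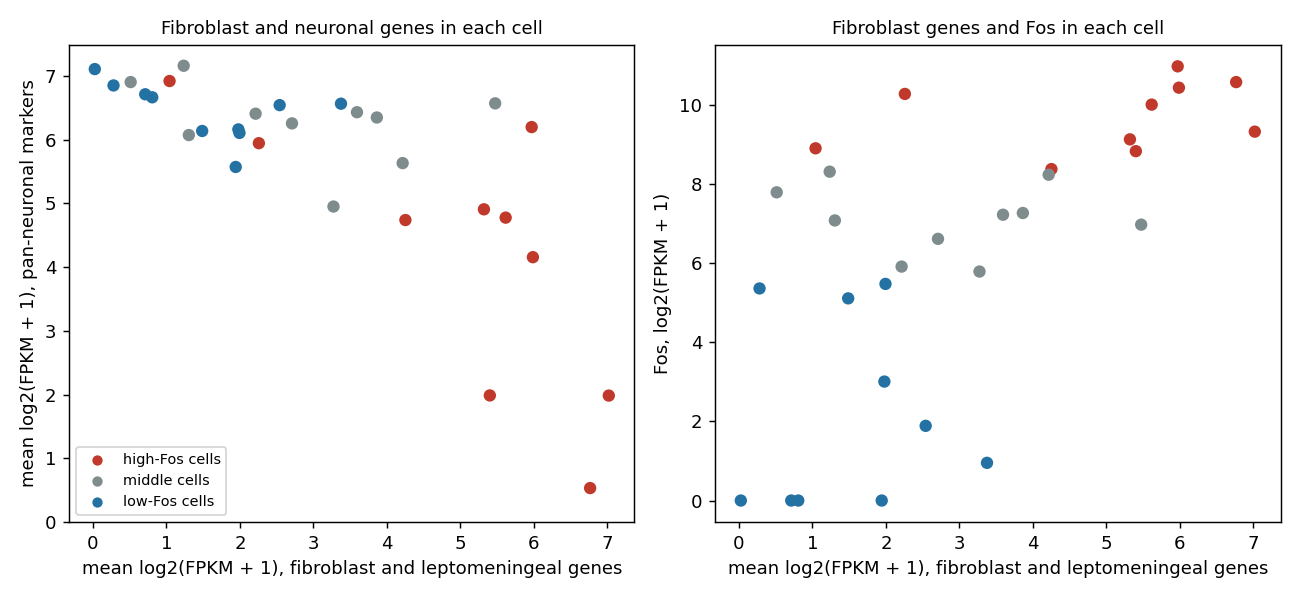
Each point is 1 of the 30 cells, coloured by Fos group, with the mean log2(FPKM + 1) of the fibroblast and leptomeningeal genes on both x axes, that of the 15 pan-neuronal markers on the left y axis and that of Fos on the right. On the left the high-Fos cells LS_13, LS_41 and LS_4 lie lowest, at 0.54, 1.99 and 1.99, and LS_18 and LS_30, with 2.26 and 1.04 on the x axis, lie among the low-Fos cells.

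Genes used by nearly all cells and the genes that the study singled out had small list medians, 0.18 and -0.25, beside 0.18 over all measured genes. Of 15 of the former, 2 were past 4-fold higher, Eef2, the elongation factor, with 2.38 and B2m, the light chain of MHC class I, with 2.75, and the median log2 difference was 0.18. Actb had 0.18 and Gapdh -0.74. Of the 8 genes from the study's account, Rhoa, a GTPase, was past 4-fold higher with 2.11 and Nptxr, a neuronal pentraxin receptor, lower with -2.62, around a median of -0.25. Rtn4r, whose product the study blocked with an antagonist, was under 4-fold. The list leaves out other genes that the study names, such as Junb (3.73) and Mef2c (-2.47), which were past 4-fold, and Neurod2 (0.28), which was not. Over all measured genes 7.24% were past 4-fold higher and 3.09% lower. Eef2 was at 1.82 without LS_35 and under 4-fold without LS_6, and Rhoa at 1.82 without LS_11 and under 4-fold without any 1 of LS_45, LS_41, LS_22, LS_31 and LS_23. The 13 mitochondrially encoded genes had a median of 0.62 and none past 4-fold.

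The middle cells lay between the groups for the early genes but with the low-Fos cells for neuronal markers. Relative to low-Fos cells, their median log2 difference was 1.06 for the immediate-early transcription factors and 1.23 for the feedback inhibitors and decay factors. For the effectors it was 0.74, which was not between the groups, since the high-Fos cells had 0.20. In the middle cells it was -0.17 for pan-neuronal markers, 0.05 for glutamatergic markers and 0.07 for the calcium to Fos genes. For fibroblast genes it was 1.09 and for MHC class I and interferon-induced genes 1.18. Fosb shows the order of the groups, with a median of 115 FPKM in high-Fos, 33.8 in middle and 0.0883 in low-Fos cells. Stmn3 shows the other pattern, with medians of 103, 654 and 826.

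Correlations with Fos over all 30 cells describe the same order without the group borders, and they carry no p since the cells share mice and library preparation. Among 5417 genes with at least 1 FPKM in at least 15 of the 30 cells, the highest Spearman correlations with Fos were those of Fosb (rho 0.83, Pearson r 0.76), Ier2 (0.81, 0.78), Gpx8 (0.80, 0.73), Tiparp (0.77, 0.71), Atf3 (0.75, 0.70), Glul (0.73, 0.73), Zfp36 (0.71, 0.66) and Ifitm2 (0.70, 0.56). The lowest were those of Stmn3 (-0.77, -0.51), Rab3a (-0.74, -0.60), Mef2c (-0.73, -0.64) and Rtn1, a reticulon (-0.73, -0.61). The mean level of the immediate-early transcription factors had a rho of 0.88 (r 0.83), of the stress genes 0.80 (0.69), of the feedback and decay genes 0.71 (0.69) and of the effectors 0.46 (0.45). Fibroblast genes had 0.66 (0.62), MHC class I and interferon-induced genes 0.75 (0.68) and pan-neuronal markers -0.50 (-0.46). Among technical measures, reads per cell had 0.06 (0.14), the mitochondrial share of reads 0.20 (0.12) and the number of genes above 1 FPKM 0.42 (0.41).

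**Figure D4:**
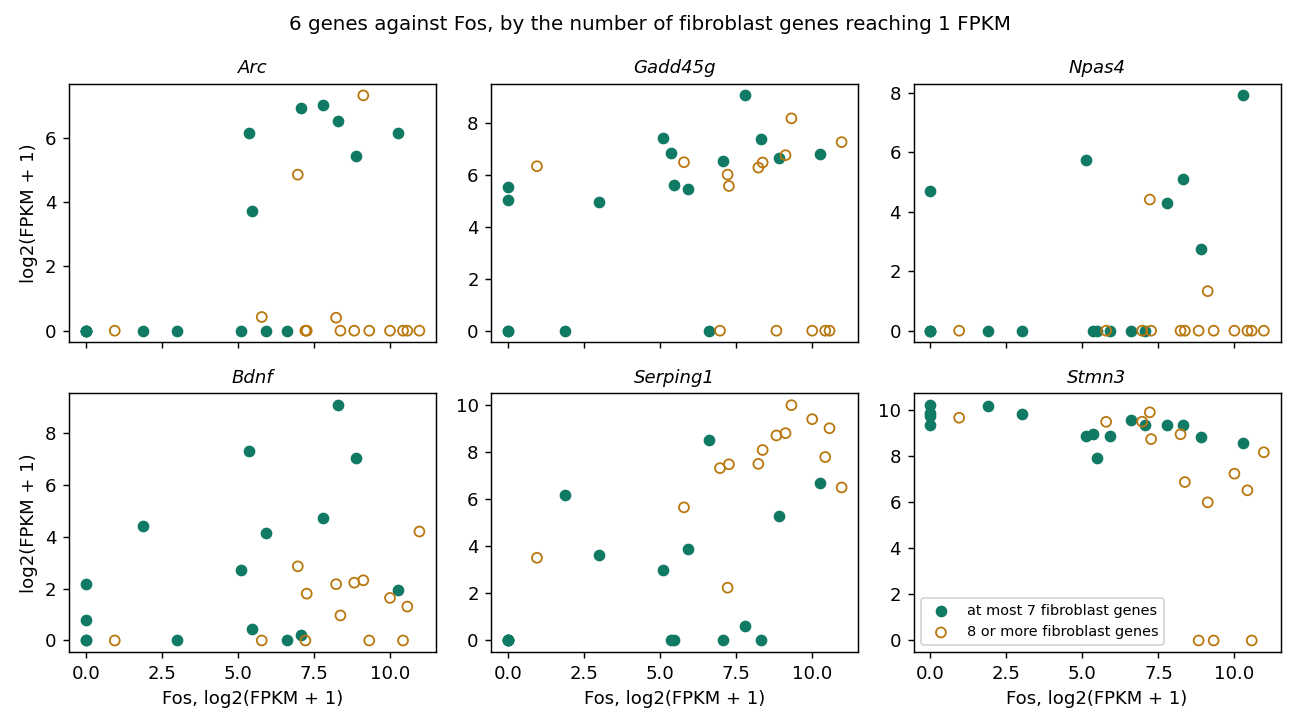
Each point is 1 of the 30 cells, with log2(FPKM + 1) of Fos on the x axis and that of Arc, Gadd45g, Npas4, Bdnf, Serping1 or Stmn3 on the y axis, and filled points mark the 16 cells with at most 7 of 17 fibroblast genes at 1 FPKM. Arc is higher with Fos among the filled points (rho 0.73), while over all 30 cells its rho is 0.18.

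The comparison was repeated in cells with few fibroblast genes, a choice made after the values were seen. In 16 of the 30 cells at most 7 of the 17 fibroblast genes reached 1 FPKM. Of these, the 5 with the highest Fos (LS_18, LS_30, LS_3, LS_29 and LS_17, the last at 134 FPKM) were set against the 5 with the lowest (LS_6, LS_23, LS_24, LS_26 and LS_35). Only LS_18 and LS_30 belong to the high-Fos group. The choice counted genes and not the amount of RNA. The summed FPKM of the fibroblast list was 29.6 (LS_29) to 4437 (LS_18) in the 5 with the highest Fos. In the 5 with the lowest it was 0.359 (LS_24) to 6237 (LS_35), the latter with 4 of the 17 genes at 1 FPKM or more. In this comparison the median log2 difference of pan-neuronal markers was 0.10, of glutamatergic markers -0.02, of calcium to Fos genes -0.18 and of fibroblast genes -0.12. It was -0.56 for upper-layer markers, 0.15 for neuropeptide and dense-core vesicle genes, 0.83 for astrocyte markers, 0.67 for microglia and macrophage markers and 1.16 for border-associated macrophage genes. Mitochondrially encoded genes had 0.0073, genes used by nearly all cells 0.043 and the list of genes taken from the study's account 0.20.

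The early genes as a list were higher in this comparison too, though not each one. The immediate-early transcription factors had a median log2 difference of 2.49, as against 2.35 in the 20 cells, with Nr4a1 at 4.37, Atf3 at 4.32, Ier2 at 4.26, Fosb at 3.49, Junb at 3.20, Jun at 3.06 and Egr1 at 2.80. Klf4, Klf6 and Csrnp1, past 4-fold in the 20 cells, were under 4-fold here, with 1.39, 1.16 and 1.25. Zfp36 had 4.44, Dusp1 2.78 and Gadd45b 4.42, while Zfp36l1 and Nfkbia had -0.18 and -0.68. The median of the feedback and decay genes was 1.10 and that of the stress genes 0.74. MHC class I and interferon-induced genes had a median of 1.54, and Serping1 had 1.29 where it had 6.40 in the 20 cells.

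The effector genes had a median log2 difference of 1.73 here, as against 0.20 in the 20 cells. Arc was 69.5, 41.9, 90.3, 129.5 and 121 FPKM in the 5 cells with the highest Fos and was listed at 0 in the 5 with the lowest. Gadd45g, a growth arrest gene of the same family as Gadd45b, was 111, 100.5, 167, 533 and 92.2 FPKM in the former and 0, 31.6, 45.4, 0 and 0 in the latter, a log2 difference of 5.18. In this comparison 470 of the 8504 measured genes (5.53%) were separated and higher. LS_31, the low-Fos cell with the highest effector mean of its group, 4.97, was not among the 5 with the lowest Fos. Nptx2 had 3.28, Bdnf 3.11, Npas4 3.07 and Homer1 0.95. Over the 16 cells the rho with Fos was 0.73 for Arc (r 0.75), 0.60 for Gadd45g (0.59), 0.71 for Fosb (0.67) and 0.89 for the mean of the immediate-early transcription factors (0.85), and it was 0.04 for the mean of the pan-neuronal markers (0.03).

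Single neuronal genes differed in how they followed Fos in these cells. Mef2c had a rho of -0.81 with Fos over the 16 cells (r -0.82) and Stmn3 -0.64 (-0.61), whereas Snap25 had -0.02 (-0.05) and Slc17a7 0.02 (-0.04). The log2 difference in the 5 against 5 cells was -1.15 for Mef2c, -0.77 for Stmn3 and -2.60 for Lin7b. Of the 377 genes separated and higher in the 20 cells, 64 (16.98%) were also among the 470 separated and higher in this comparison, 13.6% of the latter. Of the 191 lower genes 17 (8.90%) were among its 192 lower genes, 8.85% of them. The 2 comparisons share LS_18, LS_30 and the 5 low-Fos cells.

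Without LS_13, LS_41 and LS_4, the high-Fos cells with few pan-neuronal transcripts, the early genes differed by nearly as much and the neuronal markers by less. The median log2 difference was 2.15 for the immediate-early transcription factors, -1.29 for pan-neuronal markers, 3.03 for fibroblast genes and 3.58 for MHC class I and interferon-induced genes. Fosb had 5.38, Mef2c -1.61 and Snap25 -0.97.

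**Figure D5:**
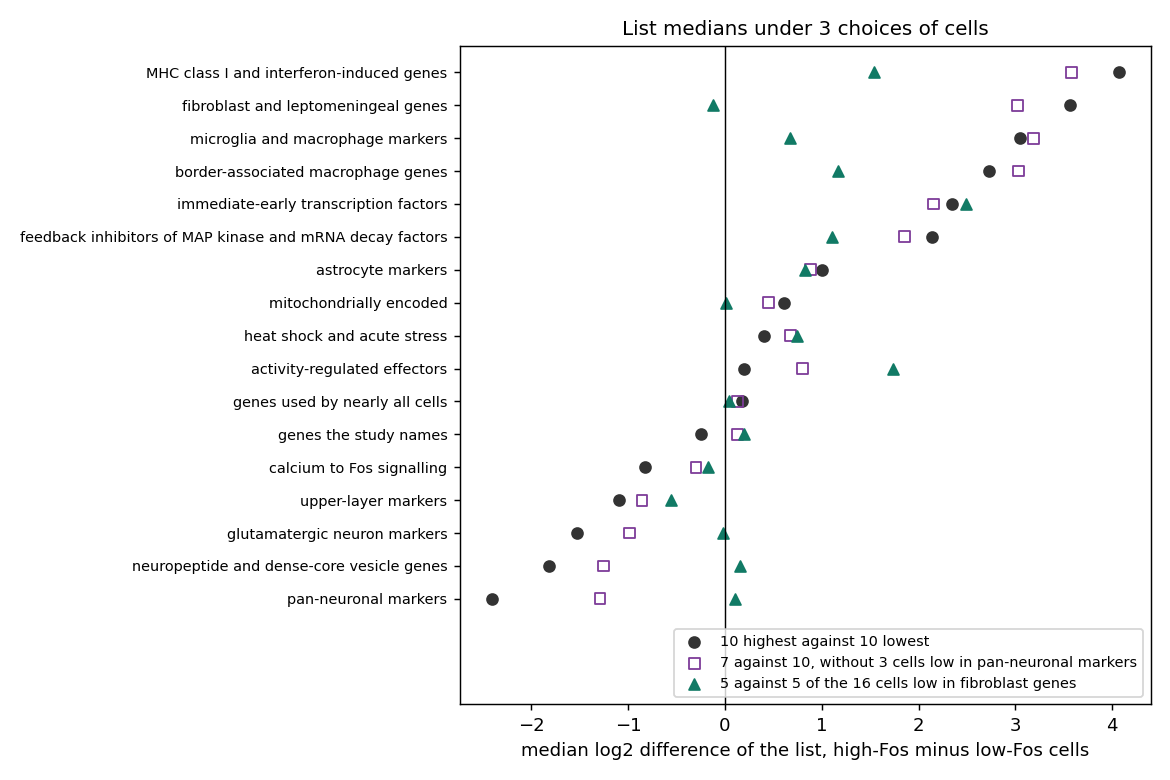
The x axis gives the median log2 difference of each gene list on the y axis for 3 choices of cells, the 20 cells by Fos rank, the same without LS_13, LS_41 and LS_4, and 5 against 5 cells with few fibroblast genes. The immediate-early transcription factors lie at 2.35, 2.15 and 2.49, and the pan-neuronal markers at -2.41, -1.29 and 0.10.

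The cells outside the ranking can be set beside these. In the 14 other LS cells Fos was 0, 528 and 12613 FPKM, and over them Fosb had a rho of 0.77 with Fos (r 0.76), Zfp36 0.89 (0.85), Junb 0.80 (0.74) and Egr1 0.79 (0.74), whereas Atf3 had 0.23 (0.32), Gpx8 -0.08 (0.06) and Stmn3 -0.01 (-0.08). These cells took no part in the ranking, but they include cells with more GABAergic than glutamatergic marker RNA and cells with glial markers. The mean of the immediate-early transcription factors had a rho of 0.31 (0.36) in them. Of the effectors, Arc had -0.17 (-0.16) and Gadd45g 0.50 (0.59) in them, and the mean of that list had -0.06 (-0.07). Only 2 NS cells met the same marker rule, with 77.5 and 222 FPKM of Fos, no Stmn3 and pan-neuronal averages of 1.07 and 1.47, so high and low Fos could not be compared among NS cells.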

How the data were processed

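Expression was measured by Smart-seq2 in 63 single somata. The authors trimmed the reads, aligned them to GRCm38 with STAR 2.5.3a, counted them per gene with featureCounts and deposited FPKM values made with scater, for 20183 protein-coding genes. Though named as counts, the table holds FPKM. Of the columns with values per cell 0 stayed unused, and 4 rows with a repeated name were left out.

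Cells were selected and ranked as the results section describes, on measured Fos. The members and the gene lists were chosen with earlier results of these data known, and the fibroblast, border macrophage, MHC class I and neuropeptide lists were added after the values were seen. Values are means of log2(FPKM + 1), where 1 FPKM is the pseudocount, over genes with at least 1 FPKM in at least 5 of the 20 cells. Named genes are list members, the 12 largest separated differences each way, genes at 0 in one group with reads in most cells of the other (3 and those tied with the third), and the 8 highest and 4 lowest Spearman correlations. Lists with fewer than 6 measured genes are given by counts.

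Since FPKM moves in steps of 1 read, reads were recovered for 12188 genes with the annotated exon length and 6305 with a length fitted to the values. For 1686 genes no length was solved, and their reads were rounded from the annotated or the median length. Below 200 reads, 99.999% of the values of solved genes lay within 0.01, plus a small share of the value, of a whole number. A gene counted as solved only when most of its low values were whole, so this share is partly set in advance. The 30 ranked cells held 366990 to 2511204 reads on the listed genes, and a gene at 0 may be expressed below that depth. The alternatives were other summaries, pseudocounts, filters, scalings, numbers of cells and depth (thinned to 200000 reads with the seed 11), and each cell left out in turn, and 2 further choices of cells were added after seeing the data. The comparison was tested on simulated data. Python 3.11.15, numpy 2.4.6, pandas 2.3.3, scipy 1.17.1 and matplotlib 3.10.9 were used. Time from light to collection is not given in the sources used here.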

Additional observations from a re-analysis of the deposited data

Results flagged for a closer look

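Within each group of 10 cells, 1 cell stood apart from the other 9 in 33 of 248 sets of values examined. The test compares the gap of the highest or lowest cell to its neighbour with the range of the group, and all values are on the log2(FPKM + 1) scale.

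Among the high-Fos cells, LS_13 had the lowest calcium to Fos mean, at 1.13, and was at 0 for Snap25, Cck and Rab3a. LS_30, which had few fibroblast genes, was at 0 for S100a11, Gpx8 and Islr and lowest for Apod, at 5.09, and Ifitm3, at 5.75. LS_45 was lowest for Nr4a1, at 2.96, and highest for Necab3, at 6.48, for Hbb-bs, at 14.63, and for the blood marker mean, at 12.70. LS_22 was at 0 for Zfp36 and Bmp7. Npas4 was highest in LS_18, at 7.92, Creb1 was highest in LS_28, at 3.62, and Atf4 was lowest in LS_4, at 2.18.

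Among the low-Fos cells, LS_31 was the only one with Atf3, at 6.47, and had the highest mean of activity-regulated effectors, at 4.97. LS_6 was highest for Txnip, at 4.70, for Islr, at 5.34, and for the border macrophage mean, at 3.999, and lowest for Prkar1b, at 5.08. LS_21 was highest for Hspb1, at 5.72, and Trib1, at 2.43. LS_11, the shallowest low-Fos cell with 366990 reads, was lowest for Scg5, at 1.98, for Gapdh, at 6.76, and for the mean of genes used by nearly all cells, at 5.28, and highest for Gja1, at 3.77. Tnfrsf12a was highest in LS_33, at 1.38, Camkk1 was at 0 in LS_25 alone, and the oligodendrocyte precursor mean was highest in LS_26, at 0.37.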

How the results depend on the processing

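Leaving out each cell in turn gave 634 to 842 genes past 4-fold higher, 230 to 402 lower, 325 to 472 separated and higher and 144 to 253 separated and lower. The median log2 difference of the immediate-early transcription factors then ran from 2.17 to 2.72, that of pan-neuronal markers from -2.77 to -2.05, and that of the effectors from -0.20 to 0.84. With the ratio of group means 96 genes were separated and lower, and counts past 4-fold were 979 and 447. With medians over cells 1502 genes were past 4-fold higher and 671 lower, feedback and decay genes had a median of 3.68 and MHC class I and interferon-induced genes 5.53. With a pseudocount of 0.1 FPKM the counts were 2097 and 806, and the medians 3.44 for immediate-early factors, 3.05 for feedback and decay genes, 4.56 for border macrophage genes and 6.09 for MHC class I and interferon-induced genes. With a filter of 1 FPKM in 10 of the 20 cells, 388 were past 4-fold higher and 224 separated and higher. With the 5 highest and 5 lowest cells, 631 genes were past 4-fold lower, 783 were separated and higher and 445 lower, and the medians were 3.52 for immediate-early factors, -2.09 for upper-layer markers, -0.41 for astrocyte markers and 5.23 for border macrophage genes. With 15 against 15 cells, 264 genes were past 4-fold higher and 49 lower, 54 separated and higher and 11 lower, and fibroblast genes had 1.95 and MHC class I and interferon-induced genes 2.28. With the cells kept that the marker products remove, 188 genes were past 4-fold lower, 232 were separated and higher and 102 lower. Without LS_13, LS_41 and LS_4, 193 were past 4-fold lower and 100 separated and lower. In 5 against 5 cells with few fibroblast genes, the medians were 1.73 for effectors, 1.10 for feedback and decay genes, -0.022 for glutamatergic markers, 0.10 for pan-neuronal markers, 0.67 for microglia and macrophage markers, -0.12 for fibroblast genes, 1.54 for MHC class I and interferon-induced genes and 0.15 for neuropeptide genes. In these cells the sign was opposite to that in the 20 cells for Egr4 (1.43), Nr4a3 (-1.38), Dusp6 (3.31), Homer1 (0.95) and Hspa8 (0.013), all under 4-fold in the 20 cells, and for Zfp36l1 (-0.18), Nfkbia (-0.68), Prkar1b (0.069), Slc17a7 (0.090), Snap25 (0.18), Tubb3 (0.10), Lamp5 (0.30), Gabrd (0.12), Tubb4a (0.19), Mgp (-2.95), Ptgds (-0.12) and Hbb-bs (-0.015). The causes of these shifts were not tested. The other 696 values of the counts and list medians stayed within 1.5 times (counts) or within 1 SD between cells (medians), including all those thinned to 200000 reads and without the cells with the highest receptor-gene levels, and no cell had under 3000 genes. Depth limits how low a level can be read in any cell. The low-Fos cells, chosen for low Fos, had a median of 2.5 Fos reads. Their median depth was 829508 reads on the listed genes, against 872030 in high-Fos cells. No paired analysis was possible because each cell has a number of its own and the result comes from no test.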
